A study of Mus musculus with 6 samples.

Results

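The genes described here encode the machinery that copies DNA in S phase and the repair factors that work at replication forks. They were chosen by gene symbol: 23 symbols were named singly, among them Ccnd1, Cdc6, Pcna, Rrm2 and Dtl, and the others were matched by family name (GINS, polymerase α, δ, ε and θ, primase, RFC, RPA, ORC, Fanconi, BRCA, the RAD family, MCM8 to MCM10 and MSH). The rule took 66 of the 7340 genes that the deposited table lists, and all 66 were tested. RNA was sequenced from 6 mouse kidney samples, all of WT genotype. Ischaemia-reperfusion injury (IRI), in which blood flow is stopped and then restored, was combined with MK-8617 in 3 samples, and 3 samples had IRI alone. MK-8617 blocks prolyl hydroxylases, the enzymes that tag hypoxia-inducible factor for destruction, and the series' title places the study in the setting of Sox9+ renal progenitor cells and regeneration. The labels give no strain, age, dose or time after injury, and injured kidney is the only baseline. Replicates are not said to be separate animals, and p-values then rest on a spread that could be technical.

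Replication begins when the origin recognition complex, CDC6 and CDT1 load the MCM helicase onto DNA, and CDC45 and the GINS complex then switch that helicase on. Polymerase α with primase starts each strand, polymerase ε and polymerase δ extend it, RFC loads the PCNA clamp that holds the polymerase, and RPA covers the single strand. E2F transcription factors, released from RB proteins by cyclin D and cyclin E kinases, switch on most genes of this machinery at the G1/S boundary, and in an adult kidney, where few cells divide, tubule cells re-enter the cycle after ischaemic injury.

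Counted reads per library came to between 16835541 and 17577794 in the MK-8617 libraries and between 18620621 and 19508497 in the IRI libraries. Umod, a defining transcript of the kidney's thick ascending limb, held 29584, 48959.9 and 50299 normalised reads in the MK-8617 libraries and 35706, 21673 and 36519 in the IRI libraries. A normalised read is a gene's read count divided by its library's size factor. The table holds only genes at p below 0.05 in the comparison that the authors made of these samples. A member is thus in the table only because it already differed there, and the counts of called members below describe the members and support nothing further. The log2 fold changes given below are differences of mean log2(normalised reads + 1), MK-8617 minus IRI, with their standard error, and a gene was called at a limma p below 0.05 after Benjamini-Hochberg adjustment over 18811 genes.

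RNA of the replication set was lower in kidneys with MK-8617. Summed over the 66 members, the level was 743.7, 747.5 and 736.6 CPM (reads scaled to a common library total) in MK-8617 replicates 1, 2 and 3, against 1371.4, 2294.3 and 1473.7 CPM in IRI replicates 1, 2 and 3. The MK-8617 libraries were nearly equal and all lay below the IRI libraries, of which replicate 2 stood above the other two. In whole tissue, fewer cycling cells and less of these RNAs per cell cannot be told apart. By limma 53 members fell, where 38.7% of the 6961 tested genes fell. Orc5 and Rad52 rose, where 35.7% of tested genes rose, and 11 members were not called. Over all tested genes 2691 fell and 2482 rose, or 2343 and 2939 with TMM scaling, under which 53 members fell and 3 rose. The median log2 fold change was -1.60 over the members and -0.31 over all tested genes. All 3 MK-8617 libraries lay below all 3 IRI libraries in 59 members, where 47.6% of tested genes had that order, and above them in 4 (Orc5, Rad52, Fancf and Rad54l2), where 44.8% of tested genes had that order. Clspn, Dscc1, Dtl, E2f8, Exo1, Fancd2, Fanci and Lrr1 were under the filter on low reads in every MK-8617 library and entered the test only through the IRI libraries, so they could be tested only if higher there. Of the other 58 members 45 fell and 2 rose, with a median log2 fold change of -1.44. Some of these 58, Pclaf and Rad54b among them, were under the filter in part of the MK-8617 libraries. They too needed IRI libraries to pass, so the 58 are not free of this effect.

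**Figure D1:**
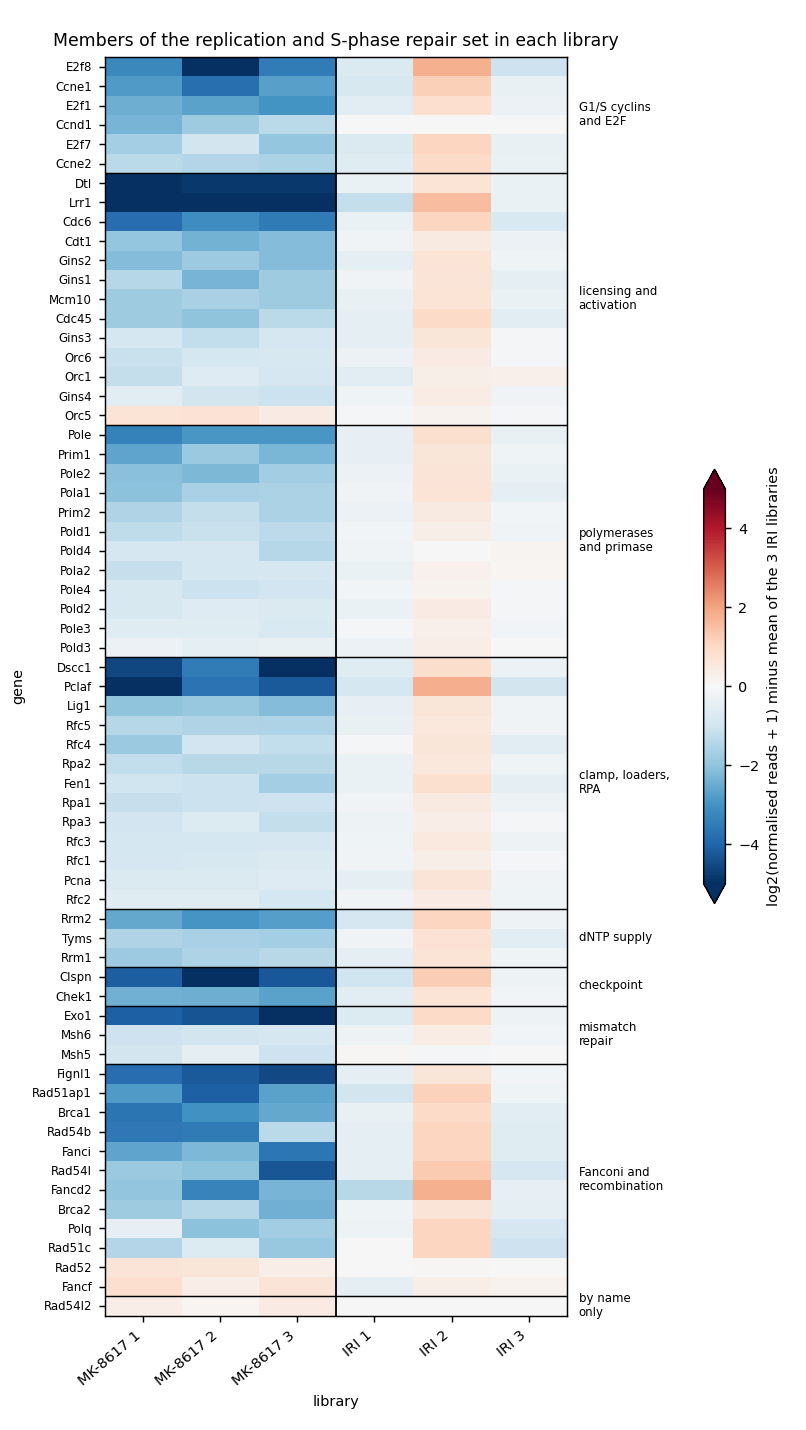
Each row is 1 gene of the set and each column 1 library, with the 3 MK-8617 libraries left of the 3 IRI libraries. Colour gives log2(normalised reads + 1) minus that gene's mean over the IRI libraries, on a scale that ends at 5 in both directions. The MK-8617 columns are blue in nearly every row, Orc5, Rad52, Fancf and Rad54l2 are the exceptions, and IRI replicate 2 is the reddest column.

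IRI replicate 2 stood apart in these genes. It was the highest of the IRI libraries in 63 of 66 members, while it was so in 38.8% of tested genes and in 51.9% of the tested genes that fell. Its level over the mean of IRI replicates 1 and 3 had a median of 1.96 in the members, with a range of 0.943 in Msh5 to 6.67 in Pclaf, and a median of 1.01 in all tested genes. A ratio of at least 2 was seen in 31 members and in 3.92% of tested genes. Ccnd1, Pold4, Rad52, Msh5 and Rad54l2 did not share in this, with ratios of 1.02, 1.03, 1.06, 0.943 and 0.971. The median coefficient of variation of the members was 18.8% over the MK-8617 libraries and 42.3% over the IRI libraries. Over all tested genes it was 11.4% and 12.4%. Without IRI replicate 2 the median log2 fold change of the members was -1.24, 52 members fell and 2 rose, where 31.0% of tested genes fell. Fancd2 and Rad54l lost their call without that library and Pcna gained one. The difference between IRI replicates 2 and 3 was set against the mean of the MK-8617 libraries minus IRI replicate 1, in log2(normalised reads + 1), so that the measures share no library. Across the members Pearson's r was -0.61 and Spearman's rho -0.70, against -0.27 and -0.24 across all tested genes, as a description over genes that share libraries.

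**Figure D2:**
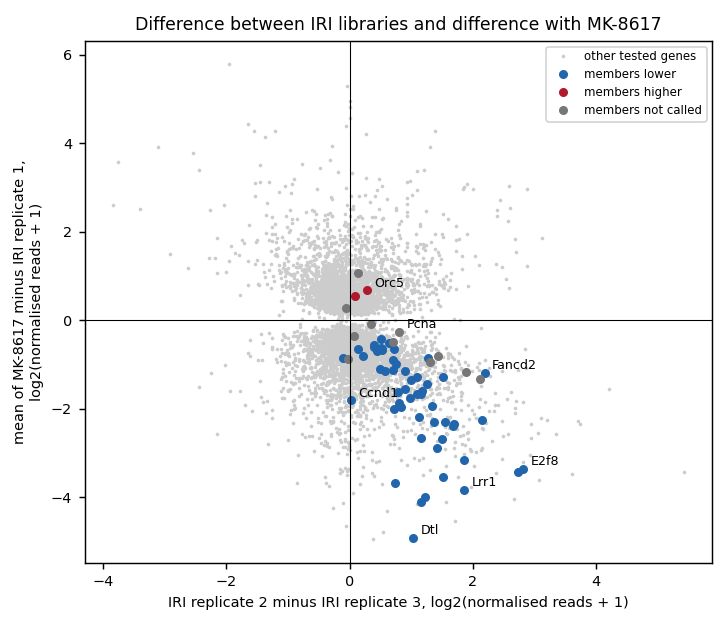
The horizontal axis gives the difference between IRI replicates 2 and 3, and the vertical axis the mean of the MK-8617 libraries minus IRI replicate 1, both in log2(normalised reads + 1), with 1 point a gene and members coloured by call. Most members lie right of 0 and below 0, and Ccnd1 lies at the vertical line.

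Promoters of the set are shown because E2F sites are a known element of many such promoters. RefSeq promoter windows (GRCm38.p6, 250 bases before to 50 bases after the transcription start) were found for 52 of the 66 members. One of the E2F 8-mers TTTGGCGC, TTTCCCGC, TTTCGCGC and TTTGCCGC, on either strand, was present in 19 of the 52 members (36.5%) and in 2.6% of all 27025 symbols of the table. It was in 13 of 40 members that fell, in 0 of 2 that rose and in 6 of 10 that were not called. The median log2 fold change was -1.52 with the 8-mer and -1.49 without it, which are close. A CCAAT box, CCAAT or ATTGG, was in 53.8% of these members and 41.1% of all symbols, and the CHR letters TTTGAA or TTCAAA in 11.5% and 20.2%. These letters are matches only, and windows overlap where a gene has several starts. In Dtl, which fell, the E2F letters ended at the last base before the start, and they are in capitals in the window from base -250 to base 30 (GRCm38, chr1:191575515-191575794, minus strand).
Dtl: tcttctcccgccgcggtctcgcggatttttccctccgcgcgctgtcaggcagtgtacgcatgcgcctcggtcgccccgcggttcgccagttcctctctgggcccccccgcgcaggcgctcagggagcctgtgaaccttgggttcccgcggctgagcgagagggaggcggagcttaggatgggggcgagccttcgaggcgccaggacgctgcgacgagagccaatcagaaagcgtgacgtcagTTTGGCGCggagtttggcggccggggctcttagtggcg
Orc5 rose, and the same stretch of its promoter (GRCm38, chr5:22550309-22550588, minus strand) held none of the E2F letters, so it has no capitals.
Orc5: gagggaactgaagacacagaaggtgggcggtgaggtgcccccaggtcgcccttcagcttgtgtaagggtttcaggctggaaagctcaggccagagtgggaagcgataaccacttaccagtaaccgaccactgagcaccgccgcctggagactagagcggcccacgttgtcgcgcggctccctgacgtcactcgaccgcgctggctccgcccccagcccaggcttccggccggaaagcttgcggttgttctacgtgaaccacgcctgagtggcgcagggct
The next stretches of 60 bases show where the letters, in capitals, lay in members of different roles and calls. Cdc6 (chr11:98907987-98908046, plus strand), Clspn (chr4:126556950-126557009, plus strand), Pole2 (chr12:69228161-69228220, minus strand), Pclaf (chr9:65890292-65890351, plus strand) and Rfc3 (chr5:151651185-151651244, minus strand) fell. Orc1 (chr4:108579401-108579460, plus strand), Gins3 (chr8:95633492-95633551, plus strand) and E2f7 (chr10:110745215-110745274, plus strand) were not called.
Cdc6: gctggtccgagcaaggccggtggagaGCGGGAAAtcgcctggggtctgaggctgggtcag
Clspn: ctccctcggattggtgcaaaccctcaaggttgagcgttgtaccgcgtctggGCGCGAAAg
Pole2: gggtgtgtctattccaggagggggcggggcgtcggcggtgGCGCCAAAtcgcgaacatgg
Pclaf: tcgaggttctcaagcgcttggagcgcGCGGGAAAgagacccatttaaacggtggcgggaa
Rfc3: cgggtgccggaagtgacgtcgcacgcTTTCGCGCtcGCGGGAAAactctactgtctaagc
Orc1: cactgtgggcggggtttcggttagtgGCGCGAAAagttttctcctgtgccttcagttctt
Gins3: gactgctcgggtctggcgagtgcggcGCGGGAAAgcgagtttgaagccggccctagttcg
E2f7: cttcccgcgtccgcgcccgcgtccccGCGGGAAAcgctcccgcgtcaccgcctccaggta

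G1/S cyclins and E2F factors came first in order of action. Of the 6 members 5 fell (median log2 fold change -2.26), where 38.7% of all tested genes fell. Ccnd1 encodes cyclin D1, which couples growth signals to RB phosphorylation (ENSMUSG00000070348, GRCm38 chr7:144929931-144939925). It had 520.5, 747 and 1018 normalised reads in the MK-8617 libraries, against 2569, 2631 and 2586 in the IRI libraries. The IRI libraries were nearly equal for this gene, replicate 2 included, and the groups did not overlap. Its log2 fold change was -1.82 ± 0.20 (adjusted p = 0.000495) and -1.81 without IRI replicate 2. Exons of the opposite-strand gene LTO1 cover 23.4% of its exon bases, and the library kit is not described as stranded, so reads of the 2 genes cannot be told apart there. Ccne1 encodes cyclin E1, the partner of CDK2 at S-phase entry, and had 17.4, 8.54 and 19.1 normalised reads with MK-8617 and 73.8, 296 and 101 with IRI alone. Again the groups were separate, with IRI replicate 2 highest. The log2 fold change of Ccne1 was -3.11 ± 0.52 (adjusted p = 0.00294), and -2.52 without IRI replicate 2. E2f1, an activating E2F factor, had 67.6, 57.6 and 45.7 normalised reads in MK-8617 libraries and 259, 657 and 299 in IRI libraries. The lowest IRI library was well above every MK-8617 library, and the log2 fold change was -2.70 ± 0.34 (adjusted p = 0.00079). Ccne2, the second cyclin E gene, fell by less (-1.45 ± 0.38, adjusted p = 0.0208) and lost its call when any 1 of the MK-8617 libraries was left out. The repressive factor E2f8 had a log2 fold change of -4.09 ± 0.86 from few reads: 4.10, 0 and 3.19 normalised reads with MK-8617 and 27.4, 161 and 22.1 with IRI. Without IRI replicate 2 the value for E2f8 was -3.21, and without MK-8617 replicate 2, its library at 0, it was -3.36. Its relative E2f7 was not called (-1.52 ± 0.50, adjusted p = 0.051), although its groups did not overlap.

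Of the 16 genes in the list for origin licensing and helicase activation 13 were in the table. Of these 10 fell, 1 rose and 2 were not called, where 38.7% of all tested genes fell and 35.7% rose. Dtl encodes the substrate receptor of a CUL4 ubiquitin ligase that destroys CDT1 and other proteins bound to PCNA on chromatin (ENSMUSG00000037474, GRCm38 chr1:191537356-191575544). It had 3.07, 8.54 and 8.51 normalised reads in the MK-8617 libraries, against 215, 434 and 212 in the IRI libraries. The MK-8617 level was 2.34% of the IRI mean, with no overlap, and the log2 fold change was -5.24 ± 0.43 (adjusted p = 0.000127). Cdt1, the licensing factor that DTL targets, had 186, 139 and 158 normalised reads with MK-8617, against 639.8, 976 and 593 with IRI. Its groups lay far apart for their spread, with a log2 fold change of -2.16 ± 0.20 (adjusted p = 0.000232). Cdc6, which loads the MCM helicase with CDT1, had 11.3, 19.2 and 13.8 normalised reads in MK-8617 libraries and 135, 365 and 101 in IRI libraries. IRI replicate 2 was again the highest library, and the log2 fold change was -3.48 ± 0.46 (adjusted p = 0.00106), while leaving that library out gave -2.93. Cdc45, a subunit of the active helicase, had 49.2, 42.7 and 67.0 normalised reads with MK-8617 and 128, 341 and 119 with IRI, with no overlap. Its log2 fold change was -1.72 ± 0.40 (adjusted p = 0.0121), a call that was lost without MK-8617 replicate 2. Lrr1, the substrate receptor of the CUL2 ligase that unloads the helicase at the end of replication, had 0 reads in all 3 MK-8617 libraries, against 13.2, 92.9 and 24.9 normalised reads in the IRI libraries. Set against a floor of 3 reads per library, Lrr1 was at least 13.8-fold lower with MK-8617, and at least 6.05-fold lower without IRI replicate 2, which carried most of its IRI reads.

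Mcm10, which joins the helicase at activation, fell (log2 fold change -1.72), as did Orc6, the smallest origin recognition subunit (-0.93). Of the GINS subunits Gins1 (-1.84), Gins2 (-2.04) and Gins4 (-0.85) fell, while Gins3 was not called (-0.98, adjusted p = 0.0511). Gins4 lost its call without MK-8617 replicate 2, without MK-8617 replicate 3 and with the trend on gene length removed. Exons of Gse1 on the opposite strand cover 67.3% of the exon bases of Gins2, so its value is uncertain. Orc1, the subunit that cycling cells make anew in G1, was not called (-0.90, adjusted p = 0.0754), with 22.5, 33.1 and 28.7 normalised reads in the MK-8617 libraries and 36.0, 65.6 and 62.3 in the IRI libraries. Orc5, another origin recognition subunit (ENSMUSG00000029012, GRCm38 chr5:22486485-22550429), went the other way. It had 466, 480.3 and 384 normalised reads with MK-8617, against 274, 329 and 269 with IRI, and every MK-8617 library was above every IRI library. The log2 fold change of Orc5 was 0.61 ± 0.14 (adjusted p = 0.0138). That call was lost without IRI replicate 1, without MK-8617 replicate 1 and without MK-8617 replicate 2.

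**Figure D3:**
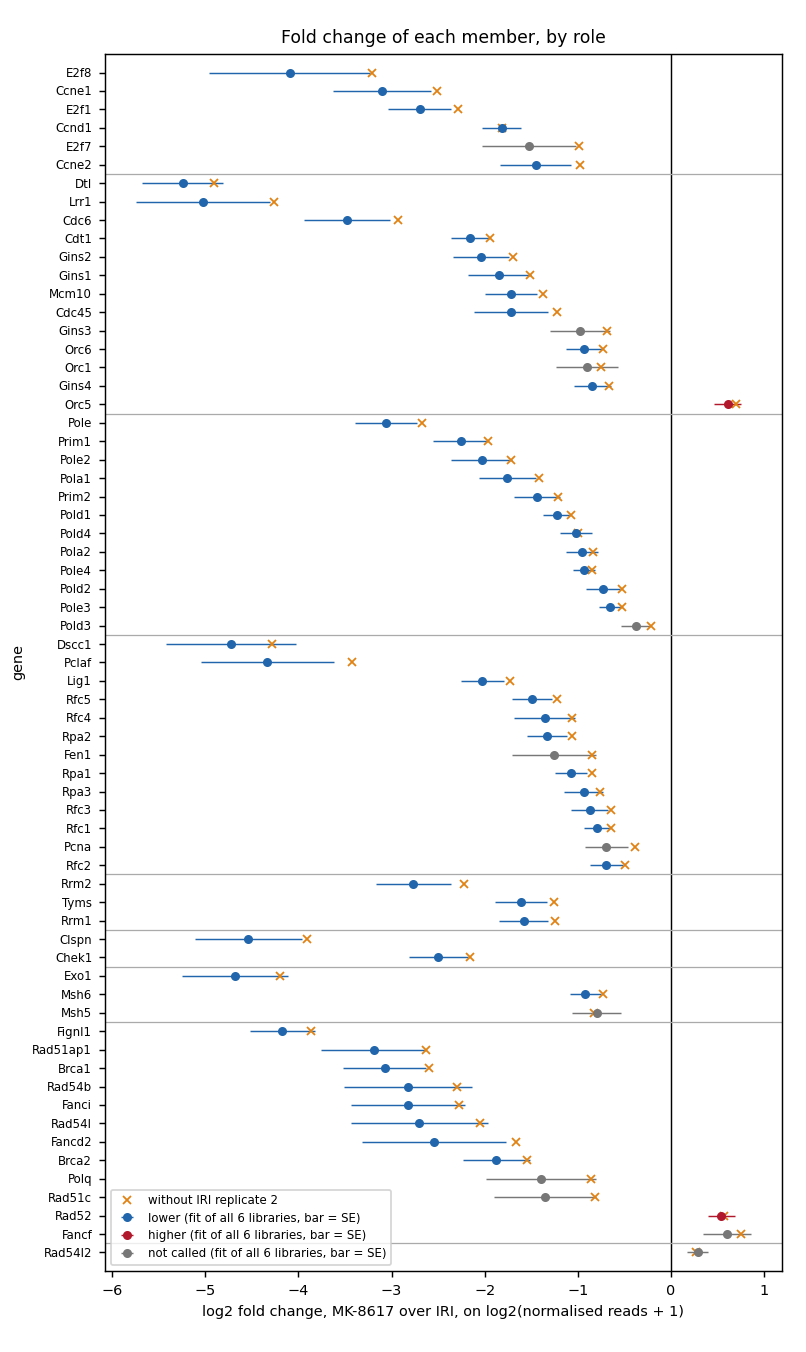
Points give the log2 fold change of each member, MK-8617 over IRI, from the limma fit of all 6 libraries, with bars of 1 SE, and crosses give the value without IRI replicate 2. Genes are grouped by role, with blue for those that fell, red for the 2 that rose and grey for the 11 that were not called. The crosses lie nearer 0 for most genes that fell, and those of Ccnd1, Pold4 and Orc5 stay close to their points.

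All 12 polymerase and primase genes were in the table and 11 fell, where 38.7% of all tested genes fell. Their median log2 fold change was -1.12. Pole, the catalytic subunit of the leading-strand polymerase, had 30.7, 43.8 and 43.6 normalised reads in MK-8617 libraries and 249.9, 571 and 256 in IRI libraries. The highest MK-8617 library was far below the lowest IRI library, and the log2 fold change was -3.06 ± 0.33 (adjusted p = 0.000439). Pold1, the catalytic subunit of polymerase δ, had 347, 378 and 336 normalised reads with MK-8617 and 752, 1029 and 735 with IRI. The fall of Pold1 was smaller but as well separated, at -1.23 ± 0.15 (adjusted p = 0.000657). Within a complex the fitted values were unequal. In polymerase ε the log2 fold changes of Pole (-3.06) and Pole2 (-2.03) were larger in size than those of the histone-fold subunits Pole3 (-0.65) and Pole4 (-0.93), which are also parts of chromatin complexes. In polymerase α and primase the catalytic Pola1 (-1.76) and Prim1 (-2.26) stood beside Pola2 (-0.95) and Prim2 (-1.44). In polymerase δ Pold2 (-0.73) and Pold4 (-1.02) fell, while Pold3 was not called (-0.38, adjusted p = 0.106), with 745, 651 and 699.7 normalised reads with MK-8617 and 736, 1138 and 892 with IRI, which overlapped. Pold2 lost its call without MK-8617 replicate 1 and without MK-8617 replicate 3. Differences between subunits were not tested.

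On a scale per length (FPKM) the polymerase ε subunits with the smaller differences had the higher levels. Pole averaged 0.196 FPKM in the MK-8617 libraries and 1.81 in the IRI libraries, whereas Pole3 averaged 18.4 with MK-8617 and 29.4 with IRI. Pole4 averaged 14.1 FPKM with MK-8617 and 27.3 with IRI. Pold4 was the most abundant member per length, with 86.1, 86.2 and 57.9 FPKM in MK-8617 libraries and 138, 159 and 170.3 in IRI libraries, and it had no excess in IRI replicate 2. Exons of AC109138.7 on the same strand cover 24.6% of its exon bases. Across the members the log2 fold change and the IRI level in log2 FPKM had Pearson's r of 0.38 and Spearman's rho of 0.43, where rho was -0.16 over all tested genes. This is a description over 66 genes measured in the same libraries, and in 20 members the MK-8617 mean was under 20 normalised reads.

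**Figure D4:**
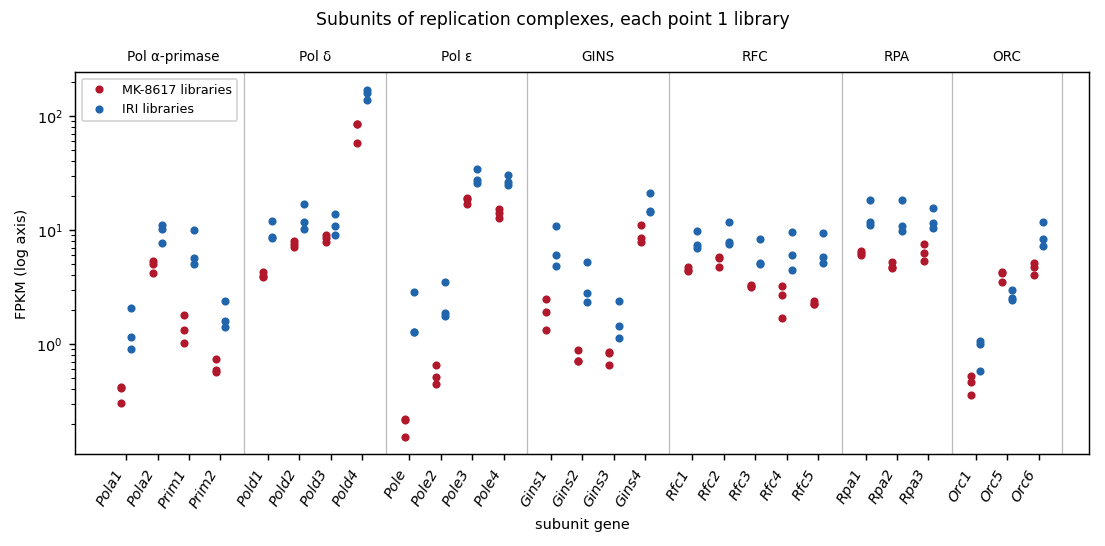
Points give FPKM on a log axis for each library, MK-8617 left of IRI, for the subunits of polymerase α with primase, polymerases δ and ε, GINS, RFC, RPA and the origin recognition complex. The gap between the groups is wide for Pole and Pole2 and narrow for Pole3, Pole4 and Pold3, and Orc5 alone has its MK-8617 points on top.

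The clamp, its loaders and the single-strand binding proteins were all in the table. Of these 13 members 11 fell (median -1.26), where 38.7% of all tested genes fell. Pcna, the sliding clamp, was the most abundant of them per length and was not called. It had 1389, 1418 and 1467 normalised reads with MK-8617 and 1696, 3567 and 2039 with IRI. The MK-8617 libraries were close together and below every IRI library, while the IRI libraries were spread. The log2 fold change of Pcna was -0.70 ± 0.23 (adjusted p = 0.0524). Without IRI replicate 2 it was smaller in size, -0.38, but past the threshold (adjusted p = 0.0461). The annotation holds the pseudogenes Pcna-ps1 and Pcna-ps2, with which reads may be shared. Lig1, the ligase that joins Okazaki fragments, had 192, 206 and 172 normalised reads in MK-8617 libraries and 582, 1169 and 681 in IRI libraries. Its groups did not overlap, and its log2 fold change was -2.02 ± 0.24 (adjusted p = 0.000578). Rfc5, a clamp loader subunit, had 203, 188 and 186 normalised reads with MK-8617 and 422, 781 and 480.3 with IRI. The log2 fold change of Rfc5 was -1.49 ± 0.22 (adjusted p = 0.00154), and those of the other loader subunits, Rfc1 to Rfc4, were -0.79, -0.70, -0.88 and -1.36. All 4 fell, but Rfc2 and Rfc4 were not called without MK-8617 replicate 1 or without MK-8617 replicate 3.

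The RPA subunits all fell, with log2 fold changes of -1.07, -1.33 and -0.94 for Rpa1, Rpa2 and Rpa3, and Rpa3 lost its call with the length trend removed. Regulators of the clamp had far larger folds from low levels. Pclaf, a small PCNA-binding protein, had 4.10, 12.8 and 8.51 normalised reads with MK-8617 and 93.7, 619 and 92.0 with IRI, so that IRI replicate 2 carried most of its IRI reads. Its log2 fold change was -4.33 ± 0.72 (adjusted p = 0.00272) and -3.42 without IRI replicate 2. Dscc1, part of the alternative clamp loader that acts in sister chromatid cohesion, had 2.05, 5.34 and 0 normalised reads with MK-8617 and 45.4, 129 and 57.5 with IRI. Its log2 fold change was -4.72 ± 0.70 (adjusted p = 0.0017), which ran from -5.34 without MK-8617 replicate 2 to -4.01 without MK-8617 replicate 3. Fen1, the flap nuclease of Okazaki fragments, was not called (-1.26, adjusted p = 0.0675). Exons of Tmem258 and Gm10143 on the opposite strand cover 84.2% of the exon bases of Fen1, and its counts, 14.3, 13.9 and 8.51 with MK-8617 and 23.7, 53.7 and 21.1 with IRI, were low.

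**Figure D5:**
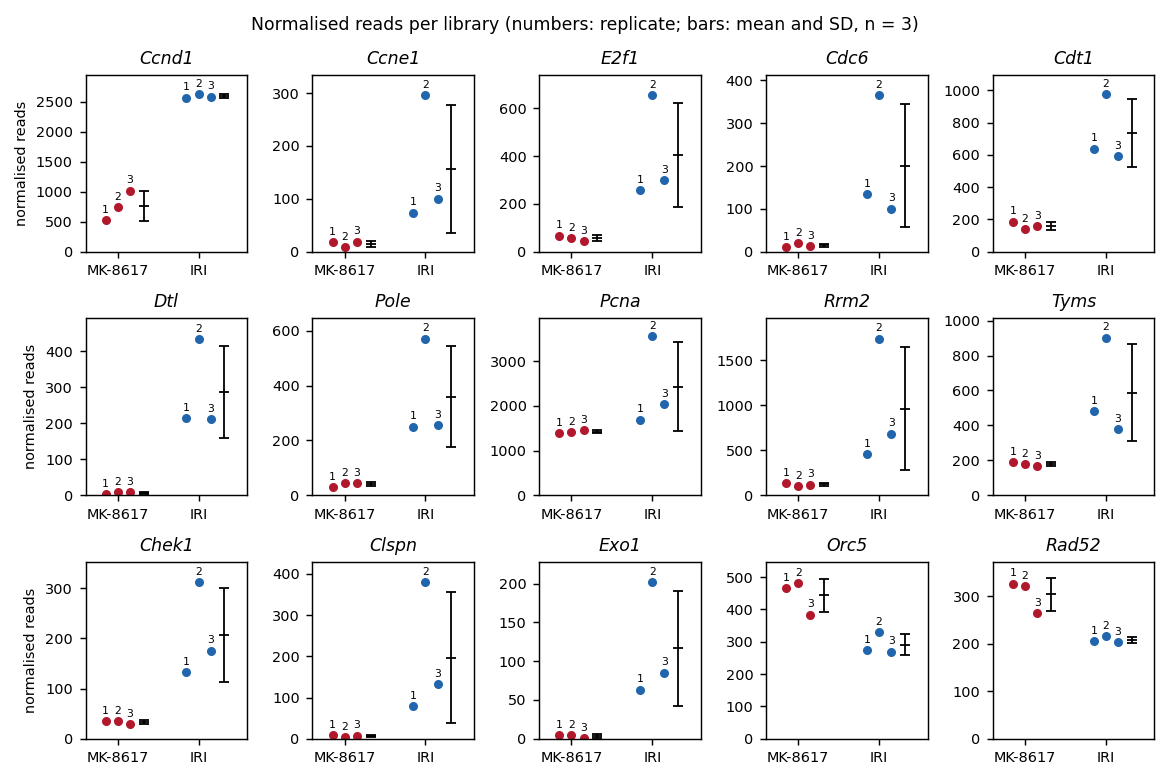
Each point is the normalised read count of 1 library, numbered by replicate, with MK-8617 left of IRI, and bars show the mean and SD of 3 libraries. IRI replicate 2 is the top point in every panel but those of Orc5 and Rad52, and the IRI points of Ccnd1 lie close together.

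The deoxynucleotide genes all fell, where 38.7% of all tested genes fell. Rrm2, the S-phase subunit of ribonucleotide reductase, had 136, 105 and 119 normalised reads in MK-8617 libraries, against 457, 1739.7 and 685 in IRI libraries. The MK-8617 libraries held 12.5% of the IRI mean, or 21.0% of the mean of IRI replicates 1 and 3, and the log2 fold change was -2.77 ± 0.40 (adjusted p = 0.0016). Leaving out IRI replicate 2 gave -2.22. Rrm1, the large subunit, had 210.0, 249 and 282 normalised reads with MK-8617 and 542, 1168 and 625 with IRI, a log2 fold change of -1.58 ± 0.26 (adjusted p = 0.00278). Tyms, which makes thymidylate, had 192, 179 and 166 normalised reads with MK-8617 and 484, 903 and 377 with IRI. Its log2 fold change was -1.61 ± 0.28 (adjusted p = 0.00329), the groups did not overlap, and a pseudogene, Tyms-ps, may share reads with it. The smaller subunit thus had the larger fold of the reductase pair, a difference that was not tested.

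Both S-phase checkpoint genes fell, where 38.7% of all tested genes fell. Chek1, the kinase that ATR activates at stalled forks, had 35.9, 35.2 and 29.8 normalised reads with MK-8617 and 133, 312 and 175 with IRI. The groups were well separated, with a log2 fold change of -2.50 ± 0.32 (adjusted p = 0.000835). Clspn encodes claspin, the adaptor through which ATR reaches CHK1, and had 8.20, 3.20 and 7.44 normalised reads in MK-8617 libraries, against 79.5, 379 and 132 in IRI libraries. Its log2 fold change was -4.54 ± 0.57 (adjusted p = 0.000804), and -3.91 without IRI replicate 2.

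Of the 6 genes in the mismatch repair list 3 were in the table. Exo1, the nuclease that removes the mismatched strand and resects breaks, had 5.12, 4.27 and 1.06 normalised reads with MK-8617 and 63.4, 201 and 85.3 with IRI. The MK-8617 level was 2.99% of the IRI mean, or 4.69% of the mean of IRI replicates 1 and 3, and its log2 fold change was -4.68 ± 0.56 (adjusted p = 0.000674), or -4.20 with IRI replicate 2 left out. Msh6, a subunit of the mismatch sensor, had 338, 370.3 and 387 normalised reads with MK-8617, against 583, 903 and 628 with IRI, a log2 fold change of -0.92 ± 0.17 (adjusted p = 0.00422). Msh5, whose known role is in meiotic crossing-over, was not called (-0.80 ± 0.26, adjusted p = 0.0505). IRI replicate 2 was the lowest IRI library for Msh5, which had 35.9, 49.1 and 33.0 normalised reads with MK-8617 and 71.9, 65.6 and 67.1 with IRI.

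Fanconi and homologous recombination genes did not all move one way. Of 25 genes 13 were in the table, 9 fell, 1 rose and 3 were not called (median -2.70). Over all tested genes 38.7% fell and 35.7% rose. Without IRI replicate 2 the median was -2.05 and 7 fell, where 31.0% of tested genes fell. Fignl1, an ATPase of homologous recombination, had the smallest adjusted p of the group. It had 14.3, 10.7 and 8.51 normalised reads in MK-8617 libraries and 151, 329.7 and 197 in IRI libraries, which lay far apart, with a log2 fold change of -4.17 ± 0.35 (adjusted p = 0.000131). The recombination factors Rad51ap1 (-3.19), Brca1 (-3.08) and Brca2 (-1.87) fell, as did the motor proteins Rad54b (-2.82) and Rad54l (-2.70). Fancd2 (-2.55) and Fanci (-2.82), which together form the clamp that the Fanconi pathway places at crosslinks, fell to a few reads per MK-8617 library. Fancd2 had 7.17, 2.13 and 5.32 normalised reads with MK-8617 and 11.4, 108 and 23.0 with IRI, and its value was -1.66 without IRI replicate 2 (adjusted p = 0.0913) and -3.23 without IRI replicate 1. Leaving out any 1 MK-8617 library also ended its call. Rad54l likewise was not called without IRI replicate 2 (-2.05, adjusted p = 0.0861), nor without MK-8617 replicate 3, where it was -1.92. Without that library Rad54b, which shares 35.9% of its exon bases with Fsbp and Gm11832, was at -3.56, and it was not called without MK-8617 replicate 1 or without MK-8617 replicate 2.

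Rad51c (-1.35, adjusted p = 0.102), a recombination mediator, and Polq (-1.40, adjusted p = 0.117), the polymerase of microhomology-mediated end joining, were not called, and their groups overlapped. Rad52 (ENSMUSG00000030166, GRCm38 chr6:119902698-119922828), a factor that anneals single strands, rose. It had 327, 321 and 265 normalised reads with MK-8617, against 205, 216 and 203 with IRI, with no overlap and IRI libraries that were close together. The log2 fold change of Rad52 was 0.54 ± 0.15 (adjusted p = 0.0232), the smallest in size among called members. Its call was lost without IRI replicate 1, without MK-8617 replicate 1, without MK-8617 replicate 2 and with the trend on gene length removed. Fancf, a subunit of the Fanconi core ligase, was also above IRI in every MK-8617 library, with 169, 117 and 146 normalised reads with MK-8617 and 67.2, 116 and 105 with IRI, but was not called (0.60, adjusted p = 0.125). Rad54l2 was matched by its name only, since it encodes a chromatin remodeller that binds steroid receptors. It had 875, 731 and 918 normalised reads with MK-8617 and 687, 674 and 701 with IRI and was not called (0.28, adjusted p = 0.0948).

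Other genes of S phase, listed by their role and with the results of these data known, were also mostly lower with MK-8617. Of 44 such genes 36 were in the table, 33 fell, none rose and 3 were not called, with a median log2 fold change of -1.79. Ticrr, which fell, had at most 6.38 normalised reads in any MK-8617 library. It passed the filter only through the IRI libraries, so the falls in this list are not free of that effect. Over all tested genes 38.7% fell and 35.7% rose, and the table holds only genes that already differed. Uhrf1, which carries DNA methylation through replication, had 99.4, 106 and 108 normalised reads with MK-8617 and 1014, 2295 and 1211 with IRI (log2 fold change -3.75, adjusted p = 6.49e-05). The helicase subunits Mcm3 (-2.78) and Mcm2 (-2.32) had the next smallest adjusted p. IRI replicate 2 was the highest IRI library in 35 of the 36, in 38.8% of all tested genes and in 51.9% of those that fell. Among 10 genes that brake S-phase entry, 4 were in the table, and Rbl1 (-1.47), Cdkn2c (-1.36) and Cdkn2b (-0.96) fell, the last not without IRI replicate 2 (adjusted p = 0.0554). Cdkn1a, the p21 inhibitor of cyclin E and A kinases, was not called (0.58, adjusted p = 0.173), with 4813, 3014 and 3993 normalised reads with MK-8617 and 2212, 1912 and 4095 with IRI.

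Of 26 mitosis genes 23 were in the table, 18 fell and none rose, where 38.7% of all tested genes fell and 35.7% rose. Some, such as Bub1, Nuf2 and Ttk, passed the filter only through the IRI libraries. These 3 had at most 6.15 normalised reads in any MK-8617 library. IRI replicate 2 was the highest IRI library in all 23, where it was so in 38.8% of all tested genes and in 51.9% of those that fell. The median log2 fold change of the mitosis genes was -2.35, and -1.66 without IRI replicate 2, where the replication set stood at -1.60 and -1.24. Top2a (-3.99), Aurkb (-3.20) and Nusap1 (-1.89) had the smallest adjusted p. Without IRI replicate 2 these were at -3.16, -2.44 and -1.48, and 15 of the 23 fell, where 31.0% of all tested genes fell. Excision repair and end joining, which also act outside S phase, had 12 of 30 genes in the table, of which 11 were tested, 5 fell and 2 rose, with a median of -0.66, where 38.7% of all tested genes fell and 35.7% rose. Xrcc1 (-0.87) and Parp1 (-0.74), which act at single-strand breaks, fell, and the nucleotide excision repair genes Ercc6 (0.68) and Ercc4 (0.39) rose.

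Markers of other cell types also moved between the groups, where 38.7% of all tested genes fell and 35.7% rose. Of 10 macrophage markers 9 were in the table and 7 fell, and their summed level was 65.0 to 86.9 CPM in MK-8617 libraries and 154.8 to 314.9 CPM in IRI libraries, highest in IRI replicate 2. All 4 of 6 fibroblast and pericyte markers in the table fell, with sums of 282 to 361 CPM with MK-8617 and 988 to 1781 CPM with IRI, again highest in IRI replicate 2. The 3 collagen markers had that order, but Acta2 was lowest in IRI replicate 2, with 5533, 4237 and 7884 normalised reads in IRI replicates 1, 2 and 3. Both of 6 neutrophil markers in the table fell, with sums of 10.5 to 26.4 CPM with MK-8617 and 29.8 to 46.8 CPM with IRI, and S100a8 lost its call without IRI replicate 2 (adjusted p = 0.14). Of 10 proximal tubule markers 3 were in the table, and 1 of them, Slc22a8, rose. The sums of the 3 were 2176 to 2405 CPM with MK-8617 and 428 to 1372 CPM with IRI. Most of each sum was Slc27a2, which was not called (adjusted p = 0.0532). Its level fell to 5546 normalised reads in IRI replicate 3, against 19790 and 21053 in the other IRI libraries. The value of 428 CPM is that of IRI replicate 3. Slc5a2 was not called either (adjusted p = 0.0521), and its groups overlapped. All 3 proximal tubule markers rose when IRI replicate 2 was left out, where 1944 of the 6961 tested genes rose. Of 3 thick ascending limb markers 1 rose and 1 fell, and of 6 distal tubule and collecting duct markers 3 were in the table and 2 fell. Havcr1, the KIM-1 marker of injured tubule, fell (-1.49) and Sox9 rose (1.56), while Vcam1 was not called and the other 2 markers of injured tubule were not in the table. Of 6 endothelial markers only Emcn was in the table and it was not called, and no marker of T or NK cells or of B cells was in the table. None of these listed markers was at 0 reads in any library. The part of these cell types in the fall of the replication genes was not tested.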

How the data were processed

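Total RNA of 6 mouse kidney samples was sequenced from NEBNext Ultra libraries, per the labels. Reads were handled with HISAT2 2.0.5, fastp, CASAVA 1.8, DESeq2 1.20.0 and featureCounts 1.5.0-p3, per the submitters' processing notes, which give no order. They name the human builds GRCh38 and hg38, whereas the gene identifiers are mouse ones. The deposited signal is a read count per gene scaled by the authors with a size factor for each library, and whole reads were recovered from 100% of them (tolerance 0.001). The deposited raw count of IRI replicate 3 equalled the recovered reads in 7340 of 7340 genes. The deposited FPKM values, with GENCODE M21 exon lengths (GRCm38), gave the library totals. The authors' deposited p-values are all below 0.05 (largest 0.0499), and their deposited log2 fold changes had the sign of MK-8617 over IRI in all 7340 genes. Genes outside the table were not analysed here, so a list member outside it has no direction.

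Samples were grouped by title. In the treatment field MK-8617 replicates 2 and 3 carry other numbers (MK8618 and MK8619), the design text speaks of tumors, and the column names carry a 1d tag that the labels do not explain. Since the values are normalised, limma 3.58.1 (trend, robust, R 4.3.3) was run on log2(value + 1), which understates the change of low genes, after filterByExpr of edgeR 4.0.16 on recovered reads, which left 6961 genes and removed 379. The p-values were adjusted over the 18811 genes that the authors' adjusted p-values imply, with a threshold of 0.05. The filter asks for about 0.5525 CPM in 3 libraries, and 8 members were under that in all MK-8617 libraries, so they passed through the IRI libraries. Further members were under it in part of the MK-8617 libraries and also needed IRI libraries to pass. The floor of 3 reads covers counting error only. Replicates differed by more than sampling noise (chi-square per degree of freedom 16.82 to 46.36). The members and lists were chosen with earlier results of these data known, and genes were named with values by a rule written down in the design: 12 fixed members, the 2 members of each role with the smallest adjusted p, those that rose or were not called, and the largest and smallest called folds. E2f8, Ccne2, Pclaf, Dscc1, Fancd2, Rad54l, Rad54b and Umod were given values after these were seen, because 1 library moves most of them or as a check of the tissue. Lrr1 and Pold4 were also given values outside that rule. Promoter windows came from RefSeq (GRCm38.p6). Some members enter the counts and are not reported here by name. The fit was tested on simulated data.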

Additional observations from a re-analysis of the deposited data

How the results depend on the processing

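The counts and folds were recomputed in 17 other ways: library-total and TMM scaling, edgeR and DESeq2 (1.42.0) on recovered reads, a pseudocount of 0.5 or 5, no filter, a mean of at least 5 CPM, adjustment over the tested listed genes alone, each library left out, the replicate block, and a trend on gene length removed. No member reversed its direction, 43 of the 53 falls kept their call wherever they were tested, and neither rise did. The number of members that fell ran from 42, where a mean of 5 CPM left fewer genes tested, to 62, with adjustment over listed genes alone. With a mean of 5 CPM no member still tested lost its call, so the lower count came from members that left the test. Over all tested genes, which were fewer there, 2026 fell with a mean of 5 CPM. With adjustment over listed genes alone 3497 fell. The median stayed between -1.85 and -1.24. The number that rose was 0 to 2 with 1 library left out, 4 with adjustment over the tested listed genes alone and 1 with the length trend removed, and the cause was not tested. Over all tested genes 1488 to 2446, 3270 and 1944 rose in those settings. With 1 library of a group left out, 46 to 58 members fell, where 1924 to 2698 of the 6961 tested genes fell. TMM scaling moved the median of all tested genes to -0.25, and the length trend to -0.23. Same-numbered libraries deviated together with correlations of 0.021, 0.116 and 0.115, and libraries with different numbers with -0.129 to 0.02. The same-numbered values were higher but small, so the main fit did not pair the samples by number. With the replicate block 55 members fell and 2 rose, Fancd2 lost its call, and E2f7, Pcna and Rad51c gained one. Over all tested genes 2747 fell and 2510 rose with that block. With 1 library left out, some genes not called in the fit of all libraries gained a call. These were E2f7, Gins3, Orc1, Pcna and Pold3 without IRI replicate 1, and Pcna without IRI replicate 2. Without IRI replicate 3 they were E2f7, Fen1, Polq and Rad51c, and without MK-8617 replicate 2 they were Msh5 and Rad54l2. With all libraries, E2f7, Gins3, Msh5 and Pcna gained a call under library-total scaling and with no filter, E2f7, Gins3, Pcna and Rad51c with DESeq2, E2f7 and Gins3 with edgeR, Gins3 and Msh5 with a pseudocount of 5, Rad54l2 with TMM scaling, E2f7 and Msh5 with the length trend removed, and all 11 uncalled members with adjustment over the tested listed genes alone. Fitted folds of genes near 0 reads depend on the offset: Lrr1 lay beyond Dtl with edgeR, DESeq2, a pseudocount of 0.5, and without IRI replicate 1 or MK-8617 replicate 1. Read depth limits Lrr1, E2f8, Dscc1, Dtl, Clspn, Fanci, Exo1 and Fancd2, whose MK-8617 libraries held few reads or none.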
